A study of Homo sapiens with 12 samples.

Results

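The response to HIF1A siRNA was measured in RCC4 cells that received HIF2A siRNA in the same transfection. RCC4, a human clear cell renal cell carcinoma (ccRCC) line in long use, carries no functional VHL, the protein that marks HIF-α subunits for destruction when oxygen is present. The comparison set 3 RNA-seq libraries from cells given HIF1A siRNA together with HIF2A siRNA (the double knockdown) against 3 libraries from cells given HIF2A siRNA, paired by replicate number, so that 6 of the 12 libraries of the series entered it. Both groups carried 1 nM HIF2A siRNA, which targets EPAS1, the gene of HIF-2α. The HIF2A siRNA group also received 1 nM control siRNA, and the double knockdown received 1 nM HIF1A siRNA in its place, so that the presence of HIF1A siRNA and the absence of control siRNA cannot be told apart. All cells were kept at 21% oxygen and harvested 48 h after transfection. The remaining 6 libraries, 3 with 2 nM control siRNA and 3 with 1 nM HIF1A siRNA and 1 nM control siRNA, gave the response to HIF1A siRNA without HIF2A siRNA. The cells of these 6 libraries are called HIF2A-replete below because they received no HIF2A siRNA.

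HIF-1 and HIF-2 are transcription factors that pair an oxygen-regulated α subunit (HIF-1α or HIF-2α) with the shared subunit ARNT and bind a short element with the core ACGTG or GCGTG. HIF-1 is known for its control of glycolysis, of mitophagy and of the switch of pyruvate away from mitochondria, and HIF-2 for growth factors, lipid handling and erythropoietin. In kidney cells without VHL both α subunits accumulate at normal oxygen, and they share part of their target genes.

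The total count lay between 13263168 and 20451433 per library, and the 10 most abundant genes took 4.98 to 6.39% of it. Expression is given as CPM, a gene's count scaled by the size of its library and the TMM factor. None of 11 markers of renal epithelium and ccRCC, CA9 included, was at 0 in either group, and their summed level was 4934 to 6221 CPM with HIF2A siRNA and 4691 to 5921 CPM in the double knockdown. Endothelial markers summed to 0.214 to 0.371 CPM with HIF2A siRNA (2 of 5 at 0 in the group) and to 0 to 0.39 CPM in the double knockdown (4 of 5 at 0). Blood cell markers summed to 0.375 to 0.795 and 0.39 to 1.28 CPM (3 of 5 at 0 in both groups). The 6 pericyte and fibroblast markers summed to 34.4 to 85.7 CPM with HIF2A siRNA and to 24.1 to 67.1 CPM in the double knockdown, where 2 of them were at 0, and these ranges overlapped.

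HIF1A mRNA was lowered in every pair. It stood at 111, 116 and 136 CPM with HIF2A siRNA (replicates 1 to 3) and at 24.2, 32.2 and 29.7 CPM in the double knockdown, or 22.1 to 27.9% of the paired library, and the groups did not overlap. The log2 fold change was -2.07 (standard error 0.21, adjusted p = 2.1e-05). EPAS1 mRNA was near the same low level in both groups, at 9.16, 11.9 and 9.33 CPM with HIF2A siRNA and 8.54, 11.3 and 7.01 CPM in the double knockdown, against 138 to 171 CPM with control siRNA. Its log2 fold change of -0.19 (standard error 0.19) had an adjusted p of 0.62. ARNT mRNA was at 26.9, 21.9 and 35.1 CPM and then 24.4, 21.6 and 31.8 CPM, with overlapping groups and an adjusted p of 0.68. With HIF1A siRNA and no HIF2A siRNA, EPAS1 mRNA was at 101, 107 and 134 CPM, below control siRNA in each pair. The log2 fold change was -0.47 (standard error 0.16, adjusted p = 0.275 from edgeR). HIF1A mRNA stood there at 12.8 to 31.2% of the paired control library (log2 fold change -2.39).

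With HIF2A depleted, HIF1A siRNA changed 520 of 13000 genes tested (4.0%) by the quasi-likelihood test of edgeR with its adjusted p held under 0.05, and most of them fell. A total of 418 genes (3.22% of those tested) were lower and 102 (0.785%) were higher, and each called gene moved in its direction in all 3 pairs. Across all genes tested, 19.9% were lower and 19.8% higher in all 3 pairs. The calls were made from these same pairs, so their agreement adds no separate support. The median log2 fold change was -0.81 among the lower genes and 0.67 among the higher genes, against 0.0042 over all genes tested. Falls beyond 1 on the log2 scale were found for 154 of the lower genes and beyond 2 for 46 of them, whereas 18 of the higher genes rose by more than 1 and 3 by more than 2. Lower mRNA in such bulk samples does not separate fewer expressing cells from less RNA per cell. The count depended on the model and on single libraries: it was 90 (86 lower, 4 higher) without the replicate block, 164 (149 and 15) in a fit of the 6 libraries only, and 818 (584 and 234) with DESeq2. It was 224, 273 and 324 without replicates 1, 2 and 3 of the double knockdown, 345 without HIF2A siRNA replicate 3, and 265 and 158 without replicate numbers 1 and 3. Correcting the counts for GC content and gene length gave 442 lower and 188 higher genes, so that higher genes made up 29.8% of the calls in place of 19.6%.

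**Figure D1:**
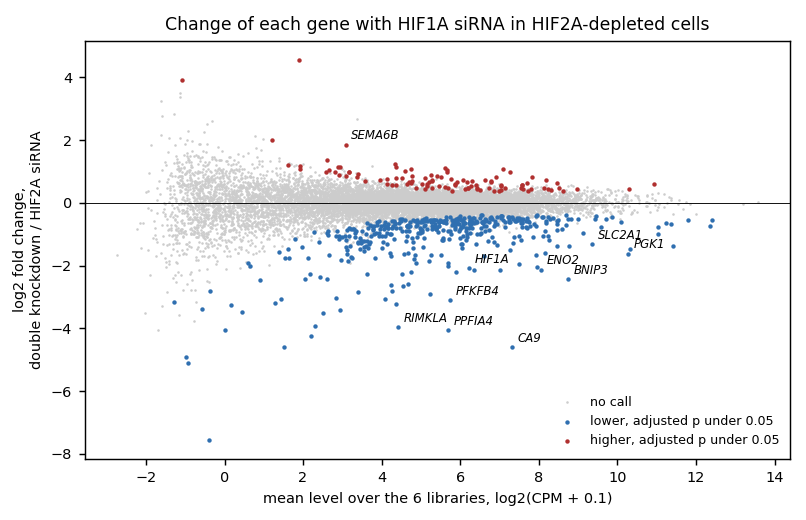
Log2 fold change of each of the 13000 genes tested in the double knockdown against HIF2A siRNA, against the mean level over the 6 libraries as log2(CPM + 0.1). Blue points are the 418 genes called lower, red points the 102 called higher and grey points genes with no call, and the falls reach further than the rises at most levels of expression.

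The 5 genes with the smallest p were CA9, BNIP3, PPFIA4, PFKFB4 and ENO2, and all were lower in the double knockdown. The 250 bases before the start of each are shown because these promoters belong to the genes on which the comparison rests most firmly. They are RefSeq sequences of the GRCh38.p14 build, 5′ to 3′ on the strand of the gene, whereas the counts were made on hg19. Capitals mark the HIF core ACGTG and the related GCGTG, searched on both strands, so that CACGT and CACGC are marked too.
CA9 (chr9:35673678-35673927, plus strand): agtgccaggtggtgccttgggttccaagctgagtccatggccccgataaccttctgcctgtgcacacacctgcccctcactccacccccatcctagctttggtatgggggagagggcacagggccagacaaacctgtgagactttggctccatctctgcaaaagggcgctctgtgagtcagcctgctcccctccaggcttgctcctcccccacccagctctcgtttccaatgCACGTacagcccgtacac
BNIP3 (chr10:131981924-131982173, minus strand): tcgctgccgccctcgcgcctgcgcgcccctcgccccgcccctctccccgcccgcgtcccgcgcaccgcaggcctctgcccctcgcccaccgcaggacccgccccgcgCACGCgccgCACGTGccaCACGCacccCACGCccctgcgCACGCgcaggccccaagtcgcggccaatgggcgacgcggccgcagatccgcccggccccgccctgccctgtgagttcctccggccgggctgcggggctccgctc
PPFIA4 (chr1:203026241-203026490, plus strand): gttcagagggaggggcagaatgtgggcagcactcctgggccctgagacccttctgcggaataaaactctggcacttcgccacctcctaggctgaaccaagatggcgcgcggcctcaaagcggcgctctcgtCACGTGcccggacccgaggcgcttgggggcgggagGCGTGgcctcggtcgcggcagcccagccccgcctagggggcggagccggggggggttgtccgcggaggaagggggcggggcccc
PFKFB4 (chr3:48556804-48557053, minus strand): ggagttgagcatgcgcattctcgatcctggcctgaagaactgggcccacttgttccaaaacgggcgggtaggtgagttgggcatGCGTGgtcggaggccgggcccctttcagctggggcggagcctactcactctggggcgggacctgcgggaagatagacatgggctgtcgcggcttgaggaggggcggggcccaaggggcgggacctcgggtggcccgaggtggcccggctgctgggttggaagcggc
ENO2 (chr12:6914330-6914579, plus strand): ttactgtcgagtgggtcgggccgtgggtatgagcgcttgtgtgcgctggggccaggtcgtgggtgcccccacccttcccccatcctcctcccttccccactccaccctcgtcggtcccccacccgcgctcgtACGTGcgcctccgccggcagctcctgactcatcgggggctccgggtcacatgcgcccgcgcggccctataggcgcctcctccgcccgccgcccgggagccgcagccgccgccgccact
ACGTG on either strand began 133 bases before the start of BNIP3, 18 before that of CA9, 118 before that of PPFIA4 and 118 before that of ENO2. In BNIP3 and PPFIA4 the ACGTG and CACGT matches overlap as CACGTG and count as 2. The PFKFB4 window held GCGTG alone, 166 bases before the start. Such matches are common: of 13885 windows of the same length from 9473 tested genes, 22.3% held ACGTG and 43.2% held GCGTG on either strand. Promoters were matched for 72.9% of the genes tested, so the shares leave out the rest. ACGTG was in 25.7% of 495 windows of lower genes, 16.5% of 127 of higher genes and 22.2% of 13263 of genes with no call. GCGTG was in 41.6%, 41.7% and 43.2% of them. These shares were not tested, and a gene can have several windows. A match is a string of letters and does not show binding.

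CA9, PPFIA4 and RIMKLA were among the genes with the largest falls. CA9 encodes carbonic anhydrase IX, which hydrates carbon dioxide at the cell surface and is a classical marker of ccRCC. It was at 312, 405 and 197 CPM with HIF2A siRNA and at 16.3, 16.0 and 6.77 CPM in the double knockdown, so that 3.68 to 5.39% of the paired level was left. The log2 fold change was -4.59 (standard error 0.16, adjusted p = 5.9e-10). PPFIA4, a liprin of synaptic and adhesion complexes, went from 125, 106 and 61.3 to 5.91, 8.05 and 3.65 CPM, a log2 fold change of -4.06 (standard error 0.17). RIMKLA, an enzyme that joins N-acetylaspartate to glutamate, went from 44.1, 45.5 and 30.4 to 2.68, 2.93 and 2.04 CPM (log2 fold change -3.96, standard error 0.24). For all 3 genes the highest double knockdown library was far below the lowest HIF2A siRNA library.

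The other genes with the largest falls differed in function. RORA, a nuclear receptor of the circadian clock, was at 7.58 to 13.9 CPM and then 0.376 to 1.36 CPM (log2 fold change -3.52). APLN, the peptide ligand of the apelin receptor, was at 25.6 to 53.3 and then 3.01 to 4.53 CPM (-3.22). MIR210HG, the host transcript of the hypoxia-induced microRNA miR-210, was at 15.4 to 44 and then 1.02 to 6.77 CPM (-3.05). ZP1 (-4.60), CCDC64B (-4.26), FAM115C (-3.93), GPR146 (-3.40) and KSR1 (-3.04) were at no more than 21.4 CPM in any HIF2A siRNA library and at no more than 2.29 CPM in any library of the double knockdown. All 12 of these genes with the largest falls, PFKFB4 included, were called at an adjusted p of 0.0012 or less. MIR210HG alone among them lost its call in an alternative fit, at an adjusted p of 0.054 without the replicate block.

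Most genes of glucose transport and glycolysis fell, with 19 of 25 lower and 0 higher, against 3.22% of all genes called lower. The median log2 fold change of the list was -0.95, against 0.0042 over all genes. PFKFB4, which makes the activator of phosphofructokinase, was at 104, 105 and 77.5 CPM with HIF2A siRNA and at 10.4, 15.3 and 8.37 CPM in the double knockdown (log2 fold change -3.10, standard error 0.15, adjusted p = 1.3e-08). ALDOC, an aldolase, went from 38.7, 44.4 and 47.7 to 6.42, 8.2 and 7.5 CPM (-2.57). ENO2, an enolase, went from 521, 489 and 281 to 121, 125 and 55.9 CPM (-2.13), and replicate 3 was the lowest library of both groups. PGK1, which makes ATP from 1,3-bisphosphoglycerate, went from 1710, 1710 and 2160 to 616, 489 and 726 CPM (-1.61). TPI1, triosephosphate isomerase, went from 1860, 2370 and 1490 to 720, 689 and 615 CPM (-1.48). SLC2A1, the glucose transporter GLUT1, was at 940, 935 and 935 CPM and then 429, 357 and 349 CPM (-1.31). None of these 6 genes had overlapping groups, and each kept its call in every alternative fit run. Several glycolytic genes have processed pseudogenes, and fragments that did not map uniquely had been removed, so that their levels are uncertain to that extent. Across the fits that left out a library or a replicate number, 14 to 20 of the 25 genes were called lower.

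Genes that hold pyruvate back from the mitochondria, or that remove mitochondria, included some of the clearest falls, although most members of these lists had no call. PDK1, a kinase that inhibits pyruvate dehydrogenase, went from 94.6, 104 and 91.1 to 27.0, 18.7 and 18.0 CPM (log2 fold change -2.21, standard error 0.17, adjusted p = 1.1e-06). NDUFA4L2, a HIF-induced homologue of a subunit of the respiratory chain, went from 516, 404 and 226 to 118, 199 and 27.2 CPM (-2.06), and lost its call without the replicate block (adjusted p = 0.65). PDK3 (-1.16) and the mitochondrial protease LONP1 (-0.48) were also lower, which made 4 of 15 genes, against 3.22% of all genes, with 0 higher. The count was 1 without the replicate block. Without replicate number 3 it was 2, with an adjusted p of 0.072 for PDK3. LONP1 lost its call in 8 of 22 alternative fits.

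BNIP3 and BNIP3L, both lower, are outer mitochondrial membrane receptors that direct mitochondria to autophagosomes. BNIP3 went from 824, 779 and 565 to 157, 140 and 104 CPM (log2 fold change -2.44, standard error 0.09, adjusted p = 8.2e-10), and 18.0 to 19.1% of the paired level remained. BNIP3L went from 271, 276 and 305 to 75.5, 63.9 and 82.8 CPM (-1.94, standard error 0.12). The autophagy protein gene ATG9A had a log2 fold change of -0.58 but lost its call in 11 of 22 alternative fits, 9 of which left out a library or a replicate number. Of 16 genes of mitophagy and autophagy, 3 were lower and 0 higher, against 3.22% and 0.785% of all genes, with a median of -0.18.

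Subunits of the respiratory chain and enzymes of the citric acid cycle did not share this pattern. None of 37 subunits of complex I and none of 39 subunits of complexes II to V was called by edgeR, with medians of 0.12 and 0.18 on the log2 scale. At an unadjusted p under 0.05, 6 subunits of complex I were higher and 1 lower, and 7 and 0 of the other complexes. In all 3 pairs 13 subunits of complex I were higher and 5 lower, and 14 and 1 of the other complexes. Of all genes, 19.8% were higher and 19.9% lower in all 3 pairs. DESeq2 called 0 subunits of complex I and 3 subunits of complexes II to V, all higher. NDUFS5, a subunit of complex I, was at 358, 326 and 214 CPM with HIF2A siRNA and 369, 524 and 237 CPM in the double knockdown (adjusted p = 0.25). Citrate synthase (CS) alone among 18 enzymes of the cycle was called, higher by 0.37 (adjusted p = 0.0497), where 0.785% of all genes were called higher. This call was lost in 17 of 22 alternative fits.

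**Figure D2:**
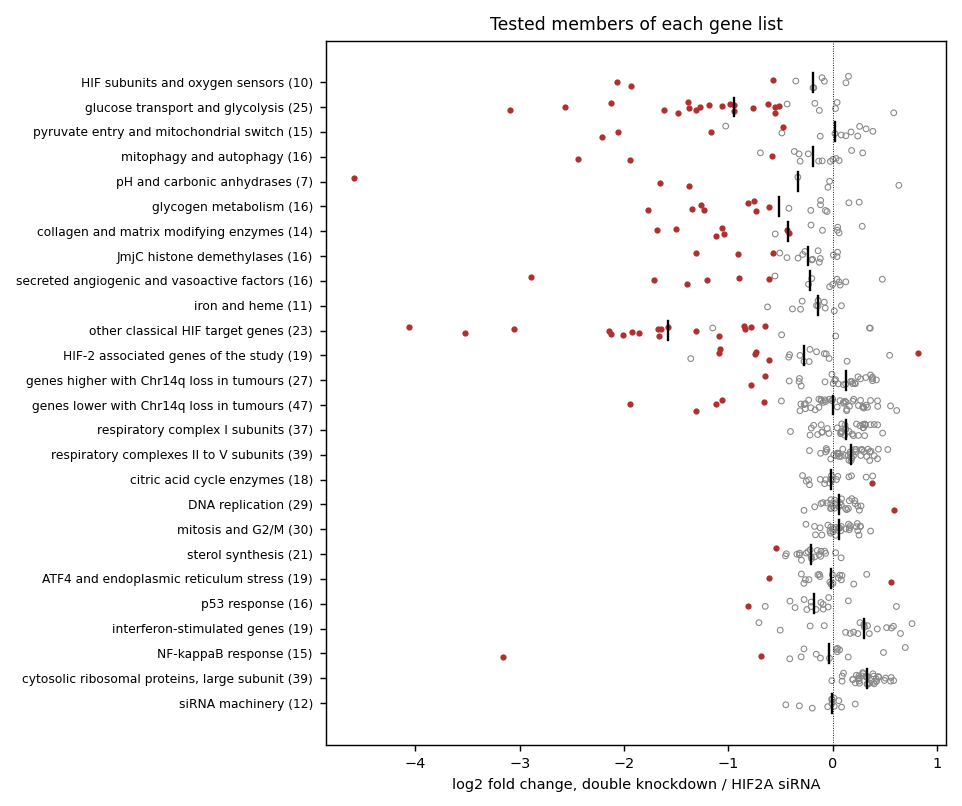
Log2 fold change in the double knockdown against HIF2A siRNA for the tested members of 26 gene lists, with the number of members in brackets. Filled red points are genes called at an adjusted p under 0.05, open points are genes with no call, and black bars are medians, which stand at -1.58 for the other classical HIF target genes, at -0.95 for glycolysis and at 0.12 for complex I.

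In the list of pH regulators, 3 of 7 genes were lower, against 3.22% of all genes, and 0 were higher. Beside CA9 these were CA12, the other cell surface carbonic anhydrase of the list (60.1, 76.0 and 36.0 CPM, then 21.4, 24.0 and 10.2 CPM, log2 fold change -1.65), and SLC16A3, the lactate exporter MCT4 (757, 563 and 569 CPM, then 270, 265 and 196 CPM, -1.38). CA12 lost its call without the replicate block (adjusted p = 0.13). The other 4 genes had no call. Among them CA2, a cytosolic carbonic anhydrase named after its values were seen, had the opposite sign, at 14.5, 31.5 and 11.1 CPM and then 26.2, 38 and 20.1 CPM, higher in each pair with overlapping groups (0.63, adjusted p = 0.052), and DESeq2 called 1 gene of the list higher. Of 16 genes of glycogen metabolism, 8 were lower, against 3.22% of all genes, and 0 higher, with a median of -0.52. GYS1, glycogen synthase, was at 168, 178 and 181 CPM and then 68.1, 56.6 and 85.1 CPM (-1.34). PPP1R3C, a subunit that targets phosphatase to glycogen and favours synthesis, went from 40.2, 51.1 and 41.1 to 11.9, 11.5 and 14.6 CPM (-1.77), and the branching enzyme GBE1 fell by 1.24. The lower genes acted in both directions of the pathway, since PYGL, which breaks glycogen down, was at 38.2, 37.2 and 51.3 and then 22.1, 23.3 and 30.9 CPM (-0.73). PYGL had an adjusted p of 0.096 without replicate number 3. Without the replicate block 5 of the 16 were lower.

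Among enzymes that modify collagen, 7 of 14 were lower, against 3.22% of all genes, and 0 higher. The prolyl hydroxylase subunit P4HA1 went from 163, 268 and 252 to 69.1, 72.1 and 98.2 CPM (log2 fold change -1.50, adjusted p = 4.2e-06). LOX, which crosslinks collagen, went from 160, 142 and 137 to 56.1, 55.6 and 30.2 CPM (-1.69), and the lysyl hydroxylase PLOD2 went from 328, 369 and 520 to 166, 156 and 266 CPM (-1.06). P4HA2 (-1.04) and ERO1L (-1.11), an oxidase of the endoplasmic reticulum, were lower as well. P4HB (-0.44) lost its call in 9 of 22 alternative fits, and without the replicate block 3 of the 14 genes were called. The summed pericyte and fibroblast markers given above were lower in each pair too, COL1A1 among them (26.0, 51.3 and 71.1 CPM, then 16.6, 26.0 and 50.2 CPM, adjusted p = 0.081), and their part in this result was not tested. Among 16 JmjC histone demethylases, enzymes that need oxygen, KDM4B (76.2, 101 and 97.8 CPM, then 33.9, 30.6 and 47.9 CPM, -1.31), KDM3A (-0.91) and KDM5B (-0.57) were lower, against 3.22% of all genes, and 0 were higher. KDM5B lost its call in 13 of 22 alternative fits, and without replicate number 3, where KDM3A had an adjusted p of 0.053, the count was 1.

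Of 16 genes for secreted angiogenic and vasoactive factors, 6 were lower, against 3.22% of all genes, and 0 higher. STC1, the hormone stanniocalcin, went from 94.0, 65.5 and 36.7 to 11.9, 11.7 and 3.80 CPM (log2 fold change -2.90, standard error 0.18, adjusted p = 1.6e-07). VEGFA, the main growth factor of blood vessels, went from 157, 165 and 118 to 66.9, 66.5 and 55.6 CPM (-1.21, standard error 0.10), with all double knockdown libraries below all HIF2A siRNA libraries. STC2 fell by 0.90 on the log2 scale. ADM, the vasodilator adrenomedullin, was at 84.8, 42.4 and 20.3 CPM and then 21.4, 21.8 and 9.06 CPM, so that the groups overlapped although each pair was lower (-1.40, adjusted p = 0.70 without the replicate block). ANGPTL4 (-1.71) lost its call without replicate 1 of the double knockdown and without replicate numbers 1 and 3 (adjusted p up to 0.078), and without the replicate block (0.68). The count was 3 without the replicate block. None of 11 genes of iron and heme was called by edgeR, where 1 was lower at an unadjusted p under 0.05, and DESeq2 called 1 lower. FTH1, ferritin heavy chain, was at 2510, 2370 and 2420 CPM and then 2480, 2530 and 2360 CPM.

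Of 10 tested genes of HIF subunits and oxygen sensors, 3 were lower, against 3.22% of all genes, and 0 higher, namely HIF1A, EGLN3 and EGLN1. EGLN3, a HIF prolyl hydroxylase, went from 71.6, 94.3 and 80 to 24.1, 25.1 and 16.0 CPM (log2 fold change -1.93, standard error 0.13, adjusted p = 4.3e-07). EGLN1, the main HIF prolyl hydroxylase, went from 230, 251 and 270 to 168, 139 and 201 CPM (-0.58), a call lost in 6 of 22 alternative fits. The other 7 had no call, the hydroxylases EGLN2 (-0.08, adjusted p = 0.77) and HIF1AN (-0.35, adjusted p = 0.23) among them. A further list of 23 classical HIF target genes, assembled with earlier results of these data known, had 18 lower, against 3.22% of all genes, and 0 higher, with a median of -1.58. It held DDIT4, an inhibitor of mTORC1 (153, 135 and 111 CPM, then 34.7, 28.8 and 27.2 CPM, -2.14), AK4, an adenylate kinase of mitochondria (440, 383 and 461 CPM, then 160, 133 and 136 CPM, -1.58), and FAM162A, a mitochondrial protein (97.5, 99.6 and 49.4 CPM, then 19.9, 34.4 and 10.3 CPM, -2.02). FAM162A lost its call without the replicate block (adjusted p = 0.15), where 11 of the 23 genes were lower.

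**Figure D3:**
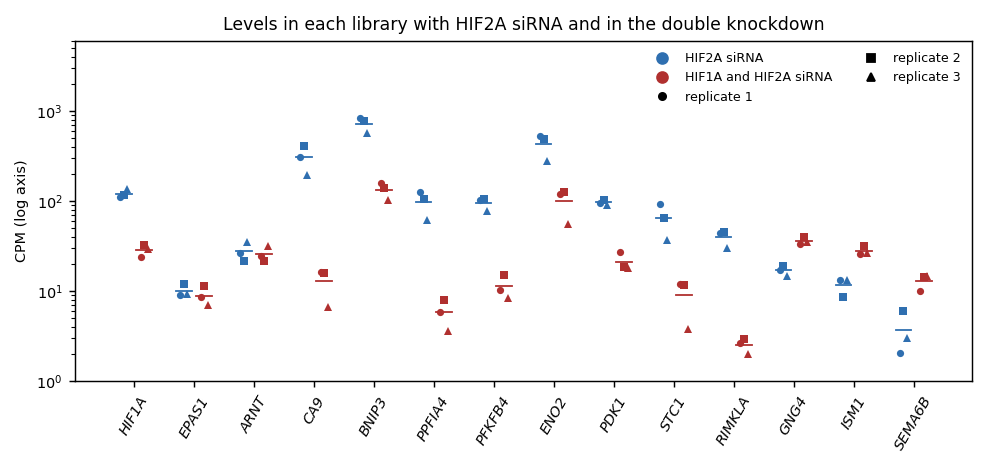
CPM on a log axis in each of the 3 HIF2A siRNA libraries (blue) and the 3 double knockdown libraries (red), with 1 symbol per replicate number and lines at the group means. HIF1A lies at 111 to 136 CPM with HIF2A siRNA and at 24.2 to 32.2 CPM in the double knockdown, EPAS1 and ARNT overlap between the groups, CA9 to RIMKLA are lower and GNG4, ISM1 and SEMA6B are higher.

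The 102 higher genes changed less and were called less firmly. SEMA6B, a membrane semaphorin, was at 2.09, 6.11 and 3.07 CPM with HIF2A siRNA and at 10.1, 14.3 and 14.8 CPM in the double knockdown (log2 fold change 1.86, standard error 0.32, adjusted p = 0.0032, and 0.11 without replicate number 3). GNG4, a subunit of heterotrimeric G proteins, went from 17.2, 19.0 and 14.9 to 33.4, 40.5 and 34.9 CPM (1.10, standard error 0.13, adjusted p = 0.00012) and kept its call in all 22 alternative fits. ISM1, the secreted protein isthmin, went from 13.3, 8.72 and 13.4 to 25.7, 32.0 and 26.9 CPM (1.24, adjusted p = 0.0038, and 0.056 without replicate number 3). PISD, which makes phosphatidylethanolamine in mitochondria, went from 105, 55.6 and 102 to 175, 160 and 211 CPM (1.08, adjusted p = 0.0013, and 0.051 without replicate number 3). SLC44A1, a choline transporter, went from 27.3, 26.8 and 48.0 to 54.4, 58.4 and 86.4 CPM (0.99), with an adjusted p of 0.43 without the replicate block. RAB3IL1, GLB1L, IL6R, OAF, LRRC8C, SLC34A2 and KIAA1456 had log2 fold changes between 1.09 and 1.37, and each lost its call in 5 to 16 of the 22 alternative fits. YTHDC1, an RNA-binding protein, had the largest log2 fold change of the named genes (4.57) at low and scattered levels, 0.428, 0.636 and 0.053 CPM and then 1.11, 6.54 and 12.8 CPM, and was at 11.7 CPM in replicate 2 of control siRNA. Its call was lost in 10 of 21 alternative fits.

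The fall seen with HIF2A depleted was next set against the response to HIF1A siRNA in cells without HIF2A siRNA. The contrasts used no library in common, although they share replicate numbers. In the fit of all 12 libraries, however, both contrasts share the estimate of the spread and the replicate block. Only the separate fits of 6 libraries keep them apart. In the 6 libraries with control or HIF1A siRNA, a separate fit called 154 genes lower with HIF1A siRNA (1.23% of 12555). In the fit of all 12 libraries, 147 of these were also called lower in the double knockdown against HIF2A siRNA. None was called higher, and 3.22% of all genes were called lower. All 154 had a negative log2 fold change, against 6413 of all 13000 genes, and 152 were lower in all 3 pairs, against 19.9%. Their median log2 fold change was -1.21 in HIF2A-depleted cells and -1.04 in HIF2A-replete cells, against 0.0042 and 0.0032 over all genes. In HIF2A-depleted cells 118 of the 154 were more negative, against 6466 of all 13000 genes. When the double knockdown and HIF2A siRNA libraries were fitted alone, 111 of the 153 genes tested were called lower, against 1.18% of all genes there. An unadjusted p under 0.05 was found for 150. Without the replicate block the list shrank to 21 genes, all called lower in the double knockdown. Without control siRNA replicate 1 it grew to 313 genes, of which 228 were called, and without replicate number 3 it held 119, of which 93 were called.

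The 7 genes of that list without a call were ANKRD37, FAM153C, GNG5, LOC729852, NMU, PIGH and RNA45S5. ANKRD37, a known HIF-1 target, was at 3.53, 5.03 and 3.76 CPM and then 1.87, 2.48 and 1.31 CPM (adjusted p = 0.054), and PIGH was at 10.3, 10.2 and 9.43 CPM and then 5.21, 7.82 and 4.97 CPM (adjusted p = 0.055). Both had groups that did not overlap. RNA45S5, the ribosomal RNA precursor, varied with replicate number, at 480, 3220 and 277 CPM and then 745, 1590 and 270 CPM.

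Read in the reverse direction, the same fits of 6 libraries give the same overlap of 111 genes, so this count adds no separate support. A fit of the double knockdown and HIF2A siRNA libraries alone called 149 genes lower (1.18% of 12610). Of these, 111 were called lower with HIF1A siRNA in the other 6 libraries, against 1.23% of 12555 genes. An unadjusted p under 0.05 was found there for 145, and all 149 had a negative log2 fold change, against 6416 of all 13000 genes. Medians were -1.26 in HIF2A-depleted cells, which chose the genes, and -1.0 in HIF2A-replete cells. Of 15 genes called higher in that fit (0.119%), 1 was called higher in HIF2A-replete cells, where 6 of 12555 genes were. There 12 had an unadjusted p under 0.05 and all 15 had a positive log2 fold change. In the fit of all 12 libraries, 166 genes were called lower in both comparisons, which is 39.7% of the 418 lower in HIF2A-depleted cells and 96.0% of the 173 lower in HIF2A-replete cells (1.33% of genes tested). Across the 13000 genes the log2 fold changes had a Pearson r of 0.485 and a Spearman rho of 0.505, where genes are not independent replicates and the comparisons share cell line, replicate numbers and scaling.

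**Figure D4:**
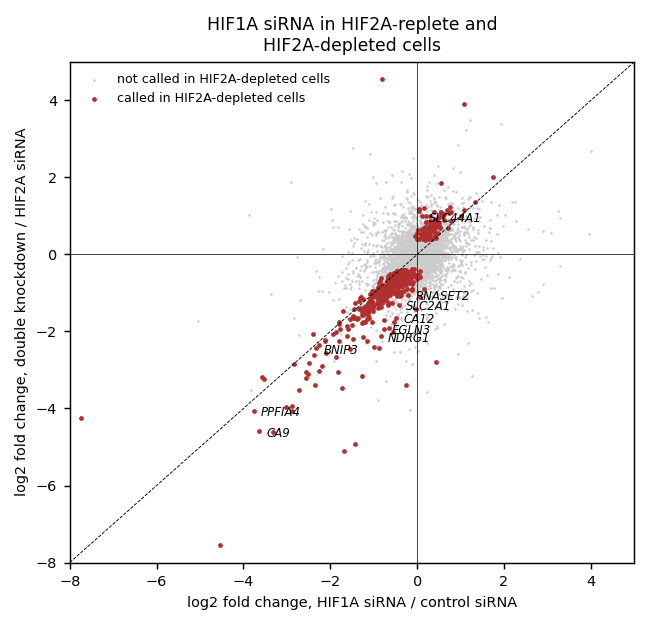
Log2 fold change of each gene with HIF1A siRNA in HIF2A-depleted cells (double knockdown against HIF2A siRNA, vertical axis) against that in HIF2A-replete cells (HIF1A siRNA against control siRNA, horizontal axis). Red points are the 520 genes called in HIF2A-depleted cells, the dashed line marks equal change, and SLC2A1 (-1.31 and -0.42), EGLN3 (-1.93 and -0.75) and CA12 (-1.65 and -0.49) lie below it.

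Whether the response differed between HIF2A-depleted and HIF2A-replete cells was tested as the difference of both log2 fold changes. No gene of 13000 (0%) was called by edgeR, 318 genes had an unadjusted p under 0.05 (203 with a more negative and 115 with a more positive change in HIF2A-depleted cells), and DESeq2 called 11 (10 and 1). The larger number of genes called in HIF2A-depleted cells, 520 against 181 (1.39% of those tested), was not shown by this test to be a difference in response. The count was 3 without HIF2A siRNA replicate 1 and 1 without HIF2A siRNA replicate 2. SLC2A1, EGLN3 and CA12 came nearest, each with an adjusted p of 0.065 in edgeR and of 1.3e-06, 2.5e-05 and 5.3e-05 in DESeq2, and over the alternative fits their adjusted p reached 1.0.

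SLC2A1 was at 1540, 1580 and 1590 CPM with control siRNA and 1220, 1160 and 1150 CPM with HIF1A siRNA, against 940, 935 and 935 CPM with HIF2A siRNA and 429, 357 and 349 CPM in the double knockdown. The 4 conditions did not overlap. HIF1A siRNA thus went with a 1.33-fold lower level in HIF2A-replete and a 2.48-fold lower level in HIF2A-depleted cells, and the difference was -0.90 on the log2 scale (standard error 0.13). EGLN3 was at 91.3, 102 and 87.5 CPM with control siRNA and 55.9, 64.6 and 47.2 CPM with HIF1A siRNA, a 1.69-fold lower level, against 3.81-fold in HIF2A-depleted cells (difference -1.18, standard error 0.18). CA12 was at 89.5, 82.3 and 54.1 CPM with control siRNA and 64.4, 70.6 and 31.8 CPM with HIF1A siRNA, 1.40-fold lower, against 3.15-fold (difference -1.16, standard error 0.18). In the 250 bases before their starts, EGLN3 and SLC2A1 held neither ACGTG nor GCGTG on either strand, and CA12 held GCGTG once, which says only that these letters are or are not in these windows.

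The next genes by p had adjusted p of 0.43 to 0.54 for the difference in edgeR and 0.0065 to 0.026 in DESeq2. NDRG1, a HIF-induced stress protein, was 4.36-fold lower in HIF2A-depleted and 1.79-fold lower in HIF2A-replete cells (difference -1.28, standard error 0.27). DDIT4 (-0.89), CA9 (-0.94), RNASET2 (-0.85), RAB42 (-1.17) and APOL1 (-0.66) also had the more negative value in HIF2A-depleted cells. RNASET2, a secreted ribonuclease, was at 96.8, 85.9 and 90.7 CPM and then 41.4, 43.8 and 46.7 CPM in HIF2A-depleted cells, whereas its levels with control siRNA (85.7 to 111 CPM) and HIF1A siRNA (78.5 to 98 CPM) overlapped. SLC44A1 alone of these genes had a more positive difference (0.88, standard error 0.17). BNIP3 may serve as the contrast, with 5.42-fold and 5.02-fold lower levels and a difference of -0.11 (standard error 0.13, adjusted p = 1.0).

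**Figure D5:**
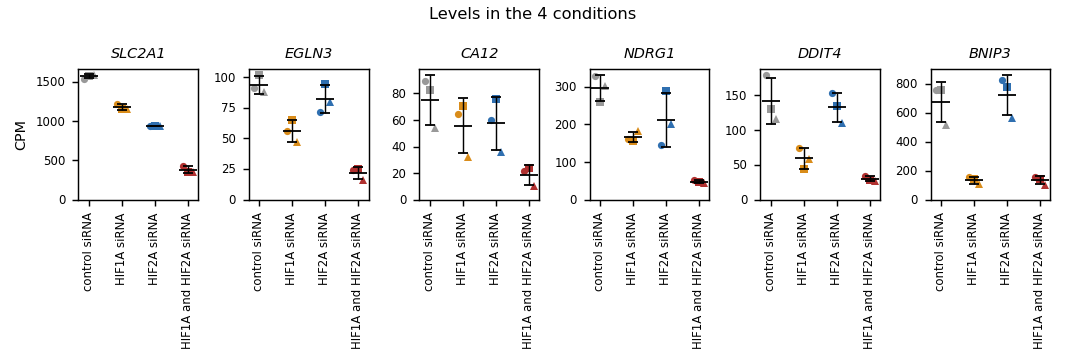
CPM of 6 genes in the 4 conditions, with 1 symbol per replicate number and bars for the mean and SD of 3 libraries. SLC2A1, EGLN3, CA12, NDRG1 and DDIT4 are lowest in the double knockdown, while BNIP3 has overlapping levels with HIF1A siRNA (107 to 155 CPM) and in the double knockdown (104 to 157 CPM).

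Genes that the study tied to HIF-2, a list of 19 chosen with the HIF2A siRNA libraries of this experiment and therefore not independent of them, moved in part. Of these, 5 were lower and 1 higher in the double knockdown against HIF2A siRNA, where 3.22% and 0.785% of all genes were called. With HIF1A siRNA in HIF2A-replete cells 0 were called. The study's HIF-2-specific genes left out those also lowered by HIF1A siRNA against control siRNA in these libraries. This 0 may therefore be fixed by the choice of genes, and no contrast is drawn from it. SYT13, a synaptotagmin, was at 179, 196 and 81.8 CPM with HIF2A siRNA and 97.3, 71.5 and 43.2 CPM in the double knockdown (log2 fold change -1.09, adjusted p = 0.00017), and IRS2, the insulin receptor substrate, at 142, 164 and 62.8 and then 89.1, 85.6 and 42.0 CPM (-0.74), and for both genes the groups overlapped although each pair fell. PLEKHG4B (-1.08), CDCP1 (-0.74) and the pseudokinase TRIB3 (-0.61) were also lower. CLEC4E, a lectin receptor, was at 33.1, 16.4 and 53.4 and then 50.6, 50.8 and 66.6 CPM (0.82), a call lost in 7 of 22 alternative fits. None of these 6 passed the test of the difference, in which adjusted p was 1.0. The counts were 3 lower without replicate number 3, where CDCP1 and TRIB3 lost their calls, 2 lower and 0 higher in a fit of the 6 libraries only, and 0 without the replicate block.

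Lists that the study drew from tumour cells with or without loss of chromosome 14q, the arm that carries HIF1A, were made from other samples. Most of the genes lower with the loss lie on 14q itself, and the paper sets such direct effects apart from secondary ones. Of 47 tested genes that were lower with the loss, 5 were lower with HIF1A siRNA in HIF2A-depleted cells and 0 higher, against 3.22% and 0.785% of all genes, with a median of -0.0005. They were BNIP3L, C4orf3 (117, 136 and 109 CPM, then 52.6, 46.5 and 46.6 CPM, log2 fold change -1.31), the phosphofructokinase PFKL (-1.06), ERO1L and EFEMP2 (-0.66, adjusted p = 0.13 without replicate number 3), and 3 genes were lower without the replicate block. Of 27 genes that were higher with the loss, 2 were lower and 0 higher, against 3.22% and 0.785% of all genes. The median of this list was 0.12, and 8 members were higher and 6 lower in all 3 pairs, against 19.8% and 19.9% of all genes. The called genes were APOL1, an apolipoprotein (244, 267 and 211 CPM, then 151, 151 and 119 CPM, -0.78), and FABP6 (-0.65), which lost its call in 13 of 22 alternative fits, 11 of which left out a library or a replicate number. Without the replicate block 0 of the 27 were called.

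Programmes outside the HIF pathway showed few calls. None of 30 genes of mitosis was called by edgeR or DESeq2, 0 had an unadjusted p under 0.05 in edgeR, and MKI67, the proliferation antigen, was at 508, 561 and 564 CPM and then 580, 497 and 563 CPM. Of 29 genes of DNA replication, 1 was called higher, against 0.785% of all genes. This was RRM2, a subunit of ribonucleotide reductase (155, 122 and 182 CPM, then 246, 203 and 237 CPM, log2 fold change 0.59). RRM2 lost its call in 6 of 22 alternative fits. Of 39 genes of large subunit ribosomal proteins none was called by edgeR and 1 was called higher by DESeq2. Their median log2 fold change was 0.33, and 23 were higher and 0 lower at an unadjusted p under 0.05, against 1007 and 1310 of all 13000 genes. In all 3 pairs 31 were higher, against 19.8% of all genes. These genes have many near-identical pseudogenes, and their levels are uncertain to that extent. None of 19 interferon-stimulated genes and none of 12 genes of the siRNA machinery was called by edgeR or DESeq2, and 3 and 1 of them had an unadjusted p under 0.05 in edgeR. In the interferon list the median log2 fold change was 0.30.

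Few calls came from the other stress lists, where 3.22% of all genes tested were called lower and 0.785% higher. Sterol synthesis had 1 of 21 genes lower (MVD, -0.54, a call lost in 15 of 22 alternative fits). In all 3 pairs 14 of the 21 were lower, against 19.9% of all genes. The list of ATF4 and endoplasmic reticulum stress had TRIB3 lower and PSAT1, an enzyme of serine synthesis, higher (60.5, 53.4 and 90.4 CPM, then 85.7, 91.8 and 120 CPM, log2 fold change 0.56), among 19 genes. PSAT1 lost its call in 6 of 22 alternative fits. In the p53 list BTG2 was lower (28.2, 22.4 and 28.5 CPM, then 15, 13.1 and 16.9 CPM, -0.81) among 16 genes, a call lost in 5 of 22 alternative fits. GDF15 of the same list was higher in each pair (0.61, adjusted p = 0.11 from edgeR) and was called in 5 of 22 alternative fits. DESeq2 called 2 genes of this list lower and 1 higher. Of 15 NF-κB response genes, IL8 (-0.69, lost in 7 of 22 fits) and CCL20 were lower, the latter at no more than 0.696 CPM in any of the 6 libraries and with its call lost in 17 of 20 fits.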

How the data were processed

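Poly(A) RNA of RCC4 cells was sequenced from 4 siRNA conditions with 3 replicates each, grouped by the sample labels. The authors trimmed reads with TrimGalore (0.3.3), aligned them to hg19 with HISAT2 (2.05), discarded fragments mapping to several places with Picard (2.0.1), counted with HTSeq (0.5.4p3, intersection-strict) and deposited whole-number counts for each gene symbol, not normalized. Versions are those of the submitters' processing notes and methods. Whether counting used strand is not given in the sources used here, so values of genes overlapping in antisense are uncertain. The study's own DESeq2 test paired conditions by replicate.

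The deposited counts of all 12 libraries were fitted in R 4.3.3 with edgeR 4.0.16 (quasi-likelihood test, TMM, expression filter at 10 counts in at least 3 libraries after scaling and 15 in total, replicate number as a block), with Benjamini-Hochberg adjustment over 13000 genes. All tests were two-sided, and a gene was called at an adjusted p under 0.05. Ratios within pairs were taken after adding 0.5 CPM. Departures from the group means had correlations across genes of 0.471, 0.224 and 0.752 between libraries of the same number (1 to 3). Different numbers gave -0.665 to 0.483. The highest of these was between double knockdown replicate 2 and HIF2A siRNA replicate 1, so the pairing by number was not borne out for replicate 2. Replicates differed by more than sampling noise and none was merged. The labels do not say whether they came from separate cultures, so p-values measure the spread between these samples, and counts of 13263168 to 20451433 per library limit low genes most. The scripts were tested on simulated data. There the edgeR test of the difference found 7.5% of changes of 0.5 on the log2 scale, 52.2% of 1 and 89.4% of 2. Each size was given to 66 or 67 genes, in the double knockdown only, so these shares may not hold for the data. Differences of 1 or more may thus be missed as well as smaller ones, and EGLN3 had no call at -1.18. In the simulation unchanged genes made up 9.17% of the calls of this edgeR test and 13.95% of those of DESeq2. For the double knockdown against HIF2A siRNA these shares were 9.15% and 11.76%.

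The comparison and the 30 gene lists, markers included, were chosen with earlier results of these data known. Named genes were HIF1A, EPAS1 and ARNT, in each direction the 12 called genes with the largest change (all pairs agreeing, mean of at least 5 CPM in a group), up to 6 called members of each list by p, or its most abundant 2 members where fewer than 2 were called, the 10 genes with the smallest p for the difference, and 5 uncalled genes of the HIF1A siRNA list. Alternatives were DESeq2 (1.42.0), its size factors, other filters, no block, 6 libraries only, GC content and length trends, and each library or replicate number left out, 22 fits in all. The study's limits were a further threshold and not one of these fits. Promoters were read from RefSeq (GRCh38.p14). Values of 2 named genes are not reported here.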

Additional observations from a re-analysis of the deposited data

How the results depend on the processing

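The 520 genes called in the double knockdown against HIF2A siRNA became 818 with DESeq2's test, 164 in the fit of the 6 libraries only and 792 at an adjusted p under 0.1 with the study's fold limit, and lay between 158 (without replicate number 3) and 672 (without control siRNA replicate 1) when a library or replicate number was left out. Without the replicate block 90 genes were called, all of them among the 520. The difference of both responses (0 genes) had 11 calls with DESeq2, 4 without a filter on low counts, 3 at the looser limits, and 0 to 3 when a library was left out. Of the genes lowered by HIF1A siRNA in HIF2A-replete cells, 147 of 154 were called, against 226 of 244 without a filter, 21 of 21 without the replicate block, and 93 to 228 when a library or replicate number was left out. The cause of these shifts was not tested. No named gene changed direction past the threshold. Of 90 named genes called, 48 lost the call in some fit, 11 of them only without the replicate block, which changed no call of HIF1A or EPAS1, and 36 in a fit that left out a library or replicate number. With 3 replicates a group, depth limits genes of low counts most.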

Other observations

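One gene, picked after its values were seen, had a level that followed the HIF1A siRNA in all but 1 library. CD99, a cell surface glycoprotein with copies on X and Y that make its counts uncertain, was at 1.78, 2.56 and 2.79 CPM with control siRNA (replicates 1 to 3), 23.2, 73.5 and 24.4 CPM with HIF1A siRNA, and 1.87, 5.60 and 1.91 CPM with HIF2A siRNA. In the double knockdown it was at 25.7, 2.03 and 24.1 CPM, so that replicate 2 stayed at the level of the libraries without HIF1A siRNA while HIF1A mRNA there was at 32.2 CPM, against 24.2 and 29.7 CPM in the other double knockdown libraries. The log2 fold change in HIF2A-depleted cells was 2.69 (standard error 0.72, adjusted p = 0.052 from edgeR), higher in 2 of 3 pairs, and passed the threshold in 5 of 22 alternative fits.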
